A study of Mus musculus with 70 samples.

Results

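The genes described here were 35 components of the cascade that runs from RAS to the kinase ERK, out of 50789 gene identifiers counted. They were listed by name and role: 5 RAS GTPases, 9 adaptors, the phosphatase SHP2, 6 exchange factors, 4 GTPase-activating proteins, 2 RAF kinases, 2 KSR scaffolds, 2 MEK kinases, 1 ERK kinase and 3 RSK kinases. All 35 were found by matching the Ensembl identifiers to mouse symbols, and all 35 passed the low-count filter in every tissue. The study addressed how the isoforms of Capicua, the transcriptional repressor encoded by Cic, differ in function between tissues, using poly(A)-selected RNA sequencing of mouse tissue.

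Each tissue held 3 genotypes, WT and the knockouts Cic-S-KO and Cic-L-KO, the WT being littermates pooled into one control group. The names Cic-S-KO and Cic-L-KO refer to the short and the long Capicua isoform. Lung came from pups at postnatal day 6, and cortex and cerebellum came from mice at 12 weeks of age. Every group held 8 samples, except Cic-S-KO cortex and Cic-S-KO cerebellum with 7 each, which gave 70 samples in 9 groups. The alleles, the strain, the sex and the line each WT animal came from are not given in the sources used here, so neither knockout could be set against WT of its own line alone. All lung samples carry one batch label and all brain samples another, so lung and brain differ in batch and age as well as in tissue and are not tested against each other. Whether each sample came from a separate animal is not stated, and the p-values then measure only the spread between these samples.

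In this cascade a growth factor receptor recruits adaptors such as GRB2 and SHC, which bring an exchange factor to the membrane, where it loads a RAS GTPase with GTP. Active RAS engages RAF kinases, RAF phosphorylates MEK, MEK phosphorylates ERK on KSR scaffolds, and ERK acts on targets that include the RSK kinases, while GTPase-activating proteins return RAS to its GDP-bound state. Capicua sits at the end of this route: it represses genes with octamer sites close to their start, and ERK signalling relieves that repression. In brain the pathway is known for its roles in synaptic plasticity and glial development, and in lung for epithelial growth and branching.

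Total counts ran from 17798655 to 35523037 per library, with a median of 24767117, and levels are given as CPM, counts scaled to library size after TMM normalisation. Summed markers fitted the labelled tissues: 5 lung markers summed to 17616 to 25472 CPM in lung and to at most 32.8 in brain, 3 cortical markers to 1349 to 1994 CPM in cortex and 414 to 687 in cerebellum, and 4 cerebellar markers to 2650 to 3809 CPM in cerebellum and 111 to 229 in cortex. The lung library of Cic-S-KO replicate 5 stood apart, with the cortical gene Neurod6 at 3.71 CPM against 0 in the other 23 lung libraries. Cortex libraries varied in 6 striatal markers, whose sum ran from 140 to 431 CPM in WT, 153 to 520 in Cic-S-KO and 127 to 428 in Cic-L-KO. The medians were 236, 445 and 229 CPM in that order, highest in Cic-S-KO, with overlapping ranges. Of the 6 markers, 0 differed from WT in either knockout at an adjusted p under 0.05 (edgeR quasi-likelihood test). Between the knockouts, 1 of the 6 was higher in Cic-S-KO cortex than in Cic-L-KO cortex. Cerebellum libraries varied in 4 brainstem markers, whose sum ran from 71.8 to 187 CPM in WT, 68.8 to 269 in Cic-S-KO and 80.3 to 289 in Cic-L-KO. Cic itself, counted over all its isoforms, does not check the genotypes: its mean was 162 ± 8.62 CPM in WT cortex, 251 ± 7.64 for Cic-S-KO and 298 ± 17.0 for Cic-L-KO (SD).

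The promoters were searched for the octamers known for Capicua, TGAATGAA, TGAATGGA, TCAATGAA and TCAATGGA, on both strands. RefSeq windows of 300 bases (250 before to 50 after the start site, build GRCm38.p6) were matched for 30 of the 35 genes, giving 39 windows, and Gab2, Mapk3, Rasal1, Rps6ka3 and Shc3 had none. At least 1 octamer was present in 2 of the 39 windows, against 1260 of all 32851 windows (3.84%). They belong to the adaptors Shc4 and Grb2, and are shown because these are the members whose windows hold the letters that Capicua is known to read. The octamers are in capitals, both windows are on the minus strand of the genome and are written 5′ to 3′ in the direction of transcription.
Shc4, chr2:125724099-125724398: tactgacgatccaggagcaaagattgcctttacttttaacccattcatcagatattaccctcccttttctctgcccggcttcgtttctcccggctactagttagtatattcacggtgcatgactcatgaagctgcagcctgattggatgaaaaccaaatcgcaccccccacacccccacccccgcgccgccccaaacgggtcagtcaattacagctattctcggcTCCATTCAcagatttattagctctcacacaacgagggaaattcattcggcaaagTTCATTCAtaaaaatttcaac
Grb2, chr11:115699879-115700178: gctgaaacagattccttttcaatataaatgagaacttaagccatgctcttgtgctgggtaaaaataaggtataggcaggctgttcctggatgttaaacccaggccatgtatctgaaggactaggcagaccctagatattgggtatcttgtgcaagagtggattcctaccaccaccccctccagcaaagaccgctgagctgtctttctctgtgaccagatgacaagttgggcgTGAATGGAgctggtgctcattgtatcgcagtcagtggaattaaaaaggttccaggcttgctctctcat
In Shc4 the octamer TGAATGGA lies on the opposite strand at -25 from the start site and TGAATGAA lies on the opposite strand at 30, so that the window shows TCCATTCA and TTCATTCA. In Grb2 TGAATGGA lies on the coding strand, as the window is written, at -18, in 1 of its 2 windows. The Grb2 gene model begins at 115708597 on the minus strand. Both of its windows therefore lie at start sites inside the gene model, and its outermost start was not searched. A match is a description of the letters and was not tested as a binding site.

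The 35 genes spanned a wide range of levels in WT tissue, and the order differed between tissues. Per kilobase of exon, the highest WT mean in lung was that of Mapk3, which encodes the kinase ERK1, at 133 CPM per kb, above Rras at 70.0, and no sample of one overlapped the other. Next in lung came Grb2 at 44.0 CPM per kb and Rras2 at 42.7, whose sample ranges overlapped. The lowest in lung were 4 genes that stood far higher in both brain regions: Shc3 at 0.147 CPM per kb, Rasgrf1 at 0.113, Rasal1 at 0.0832 and Ksr2 at 0.0275.
Cortex was led by Rasgrp1, a calcium- and diacylglycerol-responsive exchange factor, at 110 CPM per kb, followed by Map2k1, which encodes MEK1, at 88.0, with no overlap between their samples. Mapk3 at 63.4 CPM per kb and Grb2 at 61.6 followed in cortex and overlapped. Cerebellum was led by Grb2 at 72.5 CPM per kb, then Map2k1 at 53.3 and Ptpn11 at 49.2, the last pair overlapping in range. At the low end, Rasgrp2 had 1.38 CPM per kb in cortex and 0.680 in cerebellum. Shc4 and Rasgrp2 could not be ordered in cortex because their ranges overlapped. The length used is the union of all annotated exons, 12384 bases for Rasgrp2, and the length of the transcripts present was not measured. Without division by length, Rasgrp2 had a WT mean of 17.1 CPM in cortex, above Shc4 at 11.5. In cerebellum it had 8.42 CPM, below Shc4 at 30.0.

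**Figure D1:**
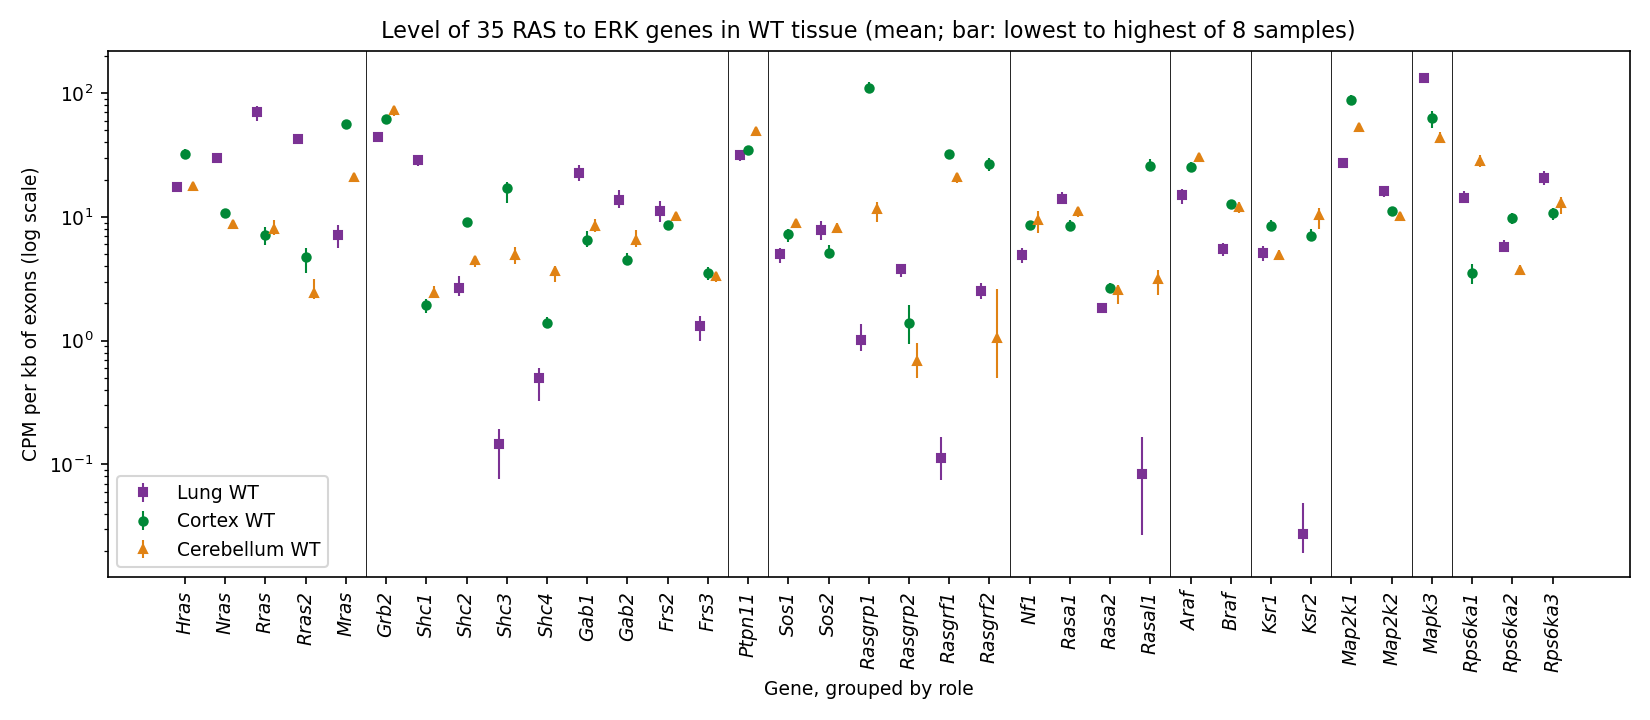
Level of each of the 35 genes in WT lung, cortex and cerebellum, as mean CPM per kb of exons on a log axis, grouped by role. Bars run from the lowest to the highest of 8 samples, and the widest gaps between tissues are those of Ksr2, Rasal1, Rasgrf1, Shc3 and Rasgrp1, which are low in lung and high in cortex.

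WT cortex and WT cerebellum share a batch label and an age and were tested directly. Of the 35 genes, 32 differed between them (18 higher in cortex and 14 lower), or 91.4%, against 73.5% of all 18032 genes tested (35.4% higher and 38.2% lower). The median absolute difference of the 35 was 0.46 on the log2 scale, close to the 0.47 of all genes. Rasgrf2, a calcium-dependent exchange factor, was 27.1-fold higher in cortex (log2 4.76, SE 0.33), and Rasgrp1 was 10.1-fold higher (log2 3.34, SE 0.07). Rasal1, a calcium-responsive GTPase-activating protein, was 8.81-fold higher in cortex (log2 3.14, SE 0.07). The opposite held for Rps6ka1, which encodes RSK1: its level in cortex was 0.131 of that in cerebellum (log2 -2.93, SE 0.07). The difference did not pass for Rras, Nf1 and Rasa2.

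In Cic-S-KO lung against WT, 8 of the 35 genes passed an adjusted p of 0.05 (edgeR quasi-likelihood test, Benjamini-Hochberg over all genes), 3 higher and 5 lower, which is 22.9% of the genes against 15.7% of all 16695 tested (9.99% higher and 5.73% lower). Rasgrp1 rose 1.53-fold, while the GTPase-activating protein Rasa1, the kinase gene Rps6ka2 and the exchange factors Sos1 and Sos2 fell. In Cic-L-KO lung 3 of 35 passed, Rras and Rps6ka1 higher and Rasa1 lower, or 8.57% against a background of 4.89% (2.62% higher and 2.28% lower). Set against each other, Cic-S-KO lung was lower than Cic-L-KO lung in 5 genes and higher in 0, or 14.3% against 12.2% of all genes (7.31% higher and 4.85% lower). These were Rras2, Shc2, Gab1, Map2k1 and Rps6ka2, and the count was 3 without Cic-S-KO replicate 5, when Shc2 and Map2k1 (-0.16) did not pass. Because both knockouts were compared with the same WT samples, values for the knockouts are given side by side without a count of agreement.

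In Cic-L-KO cortex 21 of the 35 genes passed, 11 higher and 10 lower, or 60.0% against 43.2% of all 16974 genes (21.4% higher and 21.9% lower). The adaptor Shc3, the kinase gene Rps6ka2 and the scaffold Ksr1 rose 1.64-fold, 1.58-fold and 1.56-fold, and Rasal1 fell to 0.786 of WT. Their median change in size was 0.13 on the log2 scale, below the 0.18 of all genes. In Cic-S-KO cortex 4 of 35 passed, 2 higher and 2 lower, or 11.4% against 6.53% (2.83% higher and 3.70% lower), and the largest of these was 0.21 on the log2 scale. All 4 lay below the threshold when 6 cortex libraries high in striatal markers were left out, 4 of which were Cic-S-KO, leaving 3 samples in that group. The knockouts differed from each other in 14 genes, 6 higher in Cic-S-KO and 8 lower, or 40.0% against 33.9% (17.4% higher and 16.5% lower).

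Cerebellum gave 12 changed genes in Cic-L-KO, 6 higher and 6 lower, or 34.3% against 21.5% of all 16643 genes (10.9% higher and 10.6% lower). Shc3, Rps6ka2 and Shc4 rose 1.49-fold, 1.42-fold and 1.39-fold, and Rasal1 fell to 0.403 of WT, the largest change against WT that passed among the 35. Cic-S-KO cerebellum had 7 changed genes, 6 higher and 1 lower, or 20% against 8.23% (4.34% higher and 3.89% lower). Cic-S-KO and Cic-L-KO cerebellum differed in 6 genes, 4 higher in Cic-S-KO and 2 lower, or 17.1% against 12.4% (6.06% higher and 6.38% lower). That count was 11 without 4 cerebellum libraries high in brainstem markers.

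Over the 6 comparisons of a knockout with WT, 27 of the 35 genes passed at least once, in 55 of 210 gene and comparison pairs. Of the 14306 genes tested in all 3 tissues, 65.0% passed at least once, in 17.3% of their pairs. The 8 that passed in none of the 6 were Hras, Frs3, Ptpn11, Rasgrp2, Rasgrf2, Nf1, Araf and Ksr2. Within Cic-L-KO, 9 genes passed in both brain regions, which is 42.9% of the cortex list and 75.0% of the cerebellum list, 8 of them in the same direction. Over all 15840 genes tested in both regions, 12.5% passed in both, or 28.3% of the cortex list and 56.4% of the cerebellum list. Within Cic-S-KO, 2 genes passed in both regions, Rasal1 higher in each and Mras in opposite directions, against 1.05% of all genes.

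**Figure D2:**
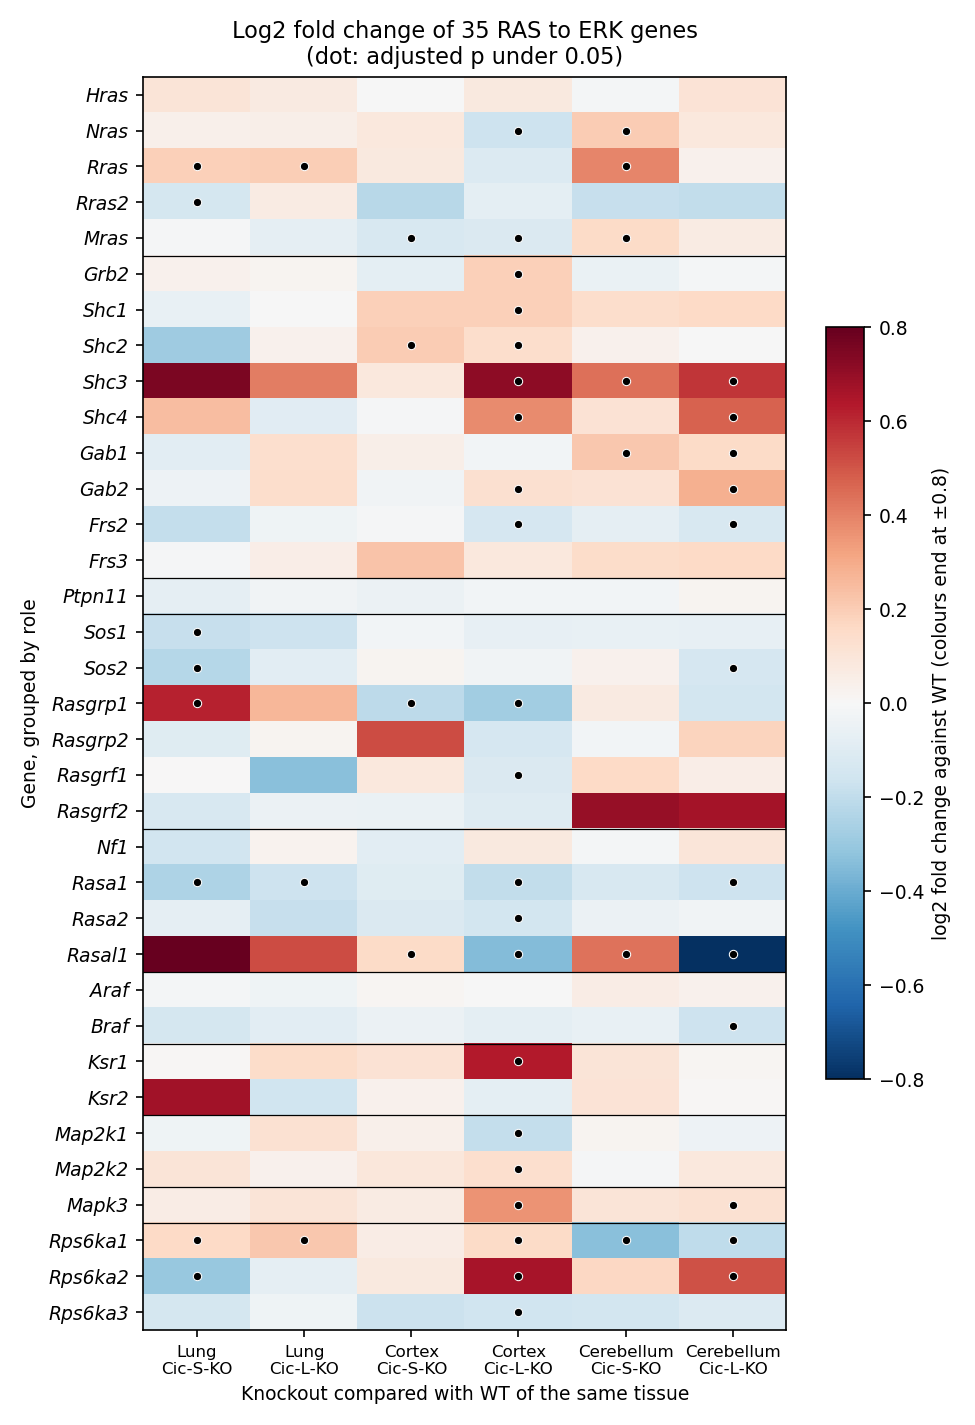
Log2 fold change of each of the 35 genes, grouped by role, in each knockout against WT of the same tissue; a dot marks an adjusted p under 0.05 and colours end at ±0.8. Dots are densest in the Cic-L-KO cortex column, with 21 of 35, and the darkest dotted cells are Rasal1 in cerebellum and Shc3, Ksr1 and Rps6ka2 in cortex, all in Cic-L-KO.

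Cell type markers also moved with genotype in these bulk tissues, where fewer cells of a type and less RNA per cell cannot be told apart. In Cic-L-KO cortex all 3 neuronal markers were lower, their sum running from 3350 to 4038 CPM against 4853 to 5468 in WT. Cic-S-KO cortex had 2 of the 3 lower and a sum of 4080 to 4603 CPM. It also had 3 of 5 oligodendrocyte markers higher than WT and 4 of 5 higher than Cic-L-KO, with sums of 4162 to 6137 CPM against 3774 to 5271 in WT and 3679 to 4789 for Cic-L-KO. In Cic-L-KO cortex 2 of the 3 cortical markers were lower, with sums of 1349 to 1585 CPM against 1786 to 1981 in WT. In cerebellum all 3 neuronal markers were lower in each knockout. Their sums were 2766 to 3411 CPM in Cic-S-KO and 2899 to 3348 in Cic-L-KO against 3419 to 3941 in WT. Of 4 astrocyte markers in cerebellum, 2 were higher than WT in Cic-S-KO and 2 were lower than WT in Cic-L-KO. The 3 endothelial markers summed to 69.5 to 81.8 CPM in Cic-L-KO cerebellum against 39.7 to 63.4 in WT, and all 3 were higher. Of 4 mesenchymal markers, summing to 79.4 to 108 CPM there against 63.1 to 77.2 in WT, all 3 that could be tested were higher. Cic-S-KO lung had all 5 myeloid markers higher, with sums of 97.0 to 316 CPM against 53.9 to 137 in WT. Their part in the changes of the RAS to ERK genes was not tested.

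The RAS GTPases are the switches of the cascade. Hras passed in none of the 9 comparisons within a tissue, with WT means of 64.8 ± 3.61 CPM in lung, 121 ± 6.85 in cortex and 66.4 ± 3.29 in cerebellum. Nras fell in Cic-L-KO cortex, from 57.0 ± 2.13 CPM in WT to 50.7 ± 3.41 (log2 -0.17, SE 0.05, adjusted p 0.00540). All 8 Cic-L-KO samples lay below every WT sample, and the call was lost when the deviation of each library by gene GC content (GC bins) was removed, at -0.10. In Cic-S-KO cerebellum Nras rose instead, from 47.0 ± 1.67 to 54.3 ± 3.95 CPM (log2 0.21, SE 0.05, adjusted p 0.00648), and all 7 samples lay above every WT sample.

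Rras encodes R-Ras, a relative of RAS better known for cell adhesion and vessel maturation. It rose in lung in each knockout, from 78.4 ± 6.33 CPM in WT to 89.3 ± 8.19 in Cic-S-KO (log2 0.19, SE 0.06, adjusted p 0.0280) and 90 ± 7.11 with Cic-L-KO (log2 0.20, SE 0.06, adjusted p 0.0440). The ranges overlapped, with 3 Cic-S-KO and 4 Cic-L-KO samples above every WT sample, and both calls were lost when GC bins (0.13 and 0.15) or, likewise, gene length bins (0.06 and 0.13) were removed. In Cic-S-KO cerebellum Rras rose from 9.03 ± 0.887 to 11.9 ± 1.46 CPM (log2 0.39, SE 0.08, adjusted p 0.00346), and 5 of 7 samples lay above every WT sample. Cic-L-KO cerebellum stood at 9.24 ± 0.914 CPM, below Cic-S-KO by a log2 of 0.36 (SE 0.08, adjusted p 0.00315).

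Rras2 encodes R-Ras2, also called TC21, and lies on chromosome 7 from 114046782 to 114117781 (GRCm38, minus strand). In lung its lowest, median and highest samples were 138, 150 and 162 CPM in WT. Cic-S-KO ran through 127, 136 and 150 CPM. Cic-L-KO ran through 147, 159 and 169 CPM. The Cic-S-KO samples were the low ones: 4 of 8 lay below every WT sample and 6 of 8 below every Cic-L-KO sample. The difference was -0.14 against WT (SE 0.04, adjusted p 0.0257) and -0.21 against Cic-L-KO (SE 0.04, adjusted p 0.00198), the smallest p among the 35 genes in that comparison. The call against WT was lost when GC bins were removed, at -0.12. In brain Rras2 stood lower, with WT medians of 17.0 CPM in cortex and 8.45 in cerebellum, and no comparison between genotypes passed there.

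Mras encodes M-Ras, which with SHOC2 helps to activate RAF, and lies on chromosome 9 from 99385420 to 99437381 (minus strand). In cortex its samples ran through 267, 280 and 306 CPM in WT, lowest, median and highest. Cic-S-KO ran through 231, 266 and 283 CPM, and Cic-L-KO through 258, 263 and 274. Both knockouts were lower and overlapped WT, with 4 of 7 and 5 of 8 samples below every WT sample. The difference from WT was -0.13 for Cic-S-KO (SE 0.04, adjusted p 0.0400) and -0.12 for Cic-L-KO (SE 0.04, adjusted p 0.0125). The Cic-S-KO call was lost with no low-count filter, with the replicate number as a block or with only 2 genotypes per fit (-0.12 in each), and without the libraries high in striatal markers (-0.06).
In cerebellum Mras ran through 103, 109 and 112 CPM in WT and 116, 119 and 128 in Cic-S-KO, with all 7 samples above every WT sample (log2 0.16, SE 0.03, adjusted p 0.00409). Cic-L-KO cerebellum ran through 107, 113 and 123 CPM (log2 0.07, SE 0.03, adjusted p 0.131). Between the regions the effect of Cic-S-KO differed by -0.29 (SE 0.05, adjusted p 0.00107) and that of Cic-L-KO by -0.18 (SE 0.05, adjusted p 0.00536). In lung the samples ran from 28.3 to 44.2 CPM over all genotypes and no comparison passed.

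Adaptors link receptors to the exchange factors, and 6 of the 9 rose in Cic-L-KO cortex while 1 fell, where 21.4% of all genes rose and 21.9% fell. In Cic-L-KO cerebellum 4 rose and 1 fell, where 10.9% and 10.6% of all genes did. In Cic-S-KO cerebellum 2 rose and 0 fell, where 4.34% and 3.89% of all genes did. In lung 0 of 9 passed against WT in either knockout, where 15.7% (Cic-S-KO) and 4.89% (Cic-L-KO) of all genes passed. Shc3 encodes the SHC adaptor of mature neurons, also called N-Shc or Rai, on chromosome 13 from 51431041 to 51569419 (minus strand). In cortex its lowest, median and highest samples were 59.1, 82.7 and 87.4 CPM in WT. Cic-S-KO ran through 65.2, 88.6 and 93.7 CPM. Cic-L-KO ran through 113, 132 and 142 CPM. Every Cic-L-KO sample lay above every WT and Cic-S-KO sample, and WT and Cic-S-KO overlapped. The log2 fold change was 0.71 in Cic-L-KO (SE 0.08, adjusted p 1.10e-07), 0.09 in Cic-S-KO (SE 0.08, not past the threshold) and -0.63 for Cic-S-KO against Cic-L-KO (SE 0.08, adjusted p 1.59e-06).
In cerebellum Shc3 ran through 19.2, 22.5 and 26.3 CPM in WT, 26.3, 29.9 and 35.1 in Cic-S-KO, and 27.7, 33.3 and 43.0 in Cic-L-KO. Both knockouts were high, with 6 of 7 and 8 of 8 samples above every WT sample, at log2 0.44 (SE 0.08, adjusted p 0.00186) and 0.57 (SE 0.08, adjusted p 1.48e-05). These rises stood beside lower neuronal markers in the same groups. In lung Shc3 was near the detection limit, from 0.352 to 2.13 CPM, and its highest value was in the Cic-S-KO library with reads of neuronal genes. Even so, 7 of 8 Cic-S-KO lung samples lay above every WT sample (log2 0.75, SE 0.26, adjusted p 0.0514, not past the threshold).

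Shc4, also called ShcL or RaLP and known from neural crest and muscle, rose in Cic-L-KO in both brain regions. In cortex it went from 11.5 ± 1.11 CPM in WT to 15.0 ± 1.03 (log2 0.38, SE 0.07, adjusted p 4.89e-05), and in cerebellum from 30.0 ± 2.97 to 41.7 ± 3.14 (log2 0.47, SE 0.06, adjusted p 5.89e-06). All 8 Cic-L-KO samples lay above every WT sample in each region. Cic-S-KO had 11.4 ± 1.28 CPM in cortex and 32.6 ± 3.21 in cerebellum, and was lower than Cic-L-KO by log2 -0.39 and -0.36 (SE 0.07 and 0.06, adjusted p 7.25e-05 and 4.04e-04). Exons of Eid1 on the opposite strand share 6.38% of the exon bases of Shc4, and whether counting used strand is not given in the sources used here, so reads of the pair cannot be told apart there. The promoter window of Shc4, printed above, holds octamers on both sides of the start, and their part in the rise was not tested.

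Shc2, the SHC adaptor known from sympathetic and sensory neurons, lies on chromosome 10 from 79618051 to 79637918 (minus strand). In cortex its samples ran through 44.9, 49.9 and 52.5 CPM in WT. Cic-S-KO ran through 51.1, 54.5 and 64.7 CPM, and Cic-L-KO through 50.9, 54.8 and 57.3. Both knockouts were higher with some overlap, 6 of 7 and 6 of 8 samples lying above every WT sample (log2 0.20, SE 0.05, adjusted p 0.0124, and 0.14, SE 0.05, adjusted p 0.0138). The Cic-S-KO call was lost, at 0.17, without the 6 libraries high in striatal markers.
In lung Shc2 ran through 12.4, 13.9 and 18 CPM in WT, 9.10, 11.8 and 15.9 for Cic-S-KO and 12.8, 15.0 and 17.5 for Cic-L-KO. Cic-S-KO was low, with 6 of 8 samples below every Cic-L-KO sample (log2 -0.32, SE 0.10, adjusted p 0.0393), a call lost without the neuronal-read library, at -0.33. Cerebellum showed medians of 24.8, 24.3 and 24.7 CPM in WT, Cic-S-KO and Cic-L-KO.

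Shc1, the widely expressed SHC adaptor, rose in Cic-L-KO cortex from 11 ± 0.974 to 12.6 ± 1.09 CPM (log2 0.19, SE 0.07, adjusted p 0.0168), with 4 of 8 samples above every WT sample, a call lost with no low-count filter. Grb2, the adaptor that carries SOS to receptors, rose there from 180 ± 5.87 to 205 ± 13.2 CPM (log2 0.19, SE 0.04, adjusted p 1.41e-04), with 7 of 8 samples above every WT sample. Cic-S-KO cortex had 170 ± 9.60 CPM of Grb2, lower than Cic-L-KO by -0.27 (SE 0.04, adjusted p 2.85e-06). The Grb2 rise was not seen in cerebellum, where means were 211 ± 14.4, 204 ± 6.47 and 209 ± 6.57 CPM in WT, Cic-S-KO and Cic-L-KO, and the Cic-L-KO effect differed between regions by 0.21 (SE 0.05, adjusted p 0.00294).

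The docking proteins GAB1 and GAB2 bind GRB2 and SHP2. Gab2 rose in Cic-L-KO, from 27.9 ± 1.87 to 30.5 ± 1.46 CPM in cortex (log2 0.13, SE 0.05, adjusted p 0.0391) and from 40.4 ± 4.41 to 49.2 ± 2.83 in cerebellum (log2 0.28, SE 0.06, adjusted p 0.0010). In cerebellum 6 of 8 samples lay above every WT sample, against 2 of 8 in cortex, where the call was lost when GC bins were removed (0.11) and with a block by library number (0.13). Gab1 rose in both cerebella, from 42.8 ± 3.13 CPM to 49.6 ± 4.11 in Cic-S-KO (log2 0.21, SE 0.06, adjusted p 0.0214) and 47.7 ± 4.19 in Cic-L-KO (log2 0.15, SE 0.06, adjusted p 0.0461), the latter lost when GC bins were removed (0.12). Both calls were lost with the replicate number as a block. In lung Gab1 stood at 109 ± 10.9 CPM in Cic-S-KO against 127 ± 11.7 in Cic-L-KO (log2 -0.22, SE 0.07, adjusted p 0.0256).
FRS2 and FRS3 couple FGF receptors to GRB2 and SHP2. Frs2 was the adaptor that fell: in Cic-L-KO cortex from 75.6 ± 2.82 to 69.0 ± 2.85 CPM (log2 -0.13, SE 0.03, adjusted p 0.00159), with all 8 samples below every WT sample. In Cic-L-KO cerebellum it fell from 89.1 ± 3.51 to 81.5 ± 2.27 CPM (log2 -0.13, SE 0.03, adjusted p 0.00301), with 6 of 8 below. Frs3 passed in none of the 9 comparisons, at WT means of 4.14 to 11.1 CPM, and shares 16.3% of its exon bases with Frs3os on the opposite strand.

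Ptpn11 encodes SHP2, the phosphatase that promotes RAS activation downstream of receptors. It passed in none of the 9 comparisons within a tissue. In cortex its means were 259 ± 7.92 CPM in WT, 251 ± 12.3 for Cic-S-KO and 256 ± 4.58 for Cic-L-KO, and in cerebellum 369 ± 11.1, 363 ± 9.30 and 373 ± 11.8. All ranges overlapped.

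Exchange factors load RAS with GTP. SOS1 and SOS2 do so downstream of receptor adaptors, and both fell in Cic-S-KO lung. Sos1 fell from 52.8 ± 5.45 to 46.4 ± 2.26 CPM (log2 -0.19, SE 0.06, adjusted p 0.0224), and Sos2 from 67.1 ± 6.82 to 57.2 ± 2.13 CPM (log2 -0.23, SE 0.05, adjusted p 0.00435). The ranges overlapped in both, with 2 of 8 samples below every WT sample, and the Sos1 call was lost when GC bins (-0.14) or length bins (-0.12) were removed. Sos2 also fell in Cic-L-KO cerebellum, from 68.9 ± 4.35 to 62.7 ± 2.32 CPM (log2 -0.14, SE 0.05, adjusted p 0.0320), a call lost when GC bins (-0.08) or length bins (-0.11) were removed. Cic-S-KO cerebellum exceeded Cic-L-KO by 0.17 (SE 0.05, adjusted p 0.0176).

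Rasgrp1 lies on chromosome 2 from 117279993 to 117343001 (minus strand) and is known for RAS activation in lymphocytes and in striatal neurons. In lung its lowest, median and highest samples were 4.66, 5.47 and 7.61 CPM in WT. Cic-S-KO ran through 6.62, 8.31 and 11 CPM, and Cic-L-KO through 5.10, 6.59 and 9.33. Cic-S-KO was high and overlapped WT in part, with 5 of 8 samples above every WT sample (log2 0.62, SE 0.14, adjusted p 0.00352). The rise stood beside the higher myeloid markers given above and beside 1 of 3 B cell markers, Cd79a (log2 0.78, SE 0.18, adjusted p 0.00401), while 0 of 4 T cell markers passed. It was kept without the neuronal-read library.
In cortex, where the gene is far more abundant, Rasgrp1 ran through 556, 612 and 682 CPM in WT. Cic-S-KO ran through 467, 553 and 573 CPM, and Cic-L-KO through 448, 499 and 574. Both knockouts were lower, with 5 of 7 and 6 of 8 samples below every WT sample, at log2 -0.21 (SE 0.05, adjusted p 0.0192) and -0.28 (SE 0.05, adjusted p 7.28e-05). The Cic-S-KO call was lost without the libraries high in striatal markers (-0.15) and when GC bins were removed (-0.18). In cerebellum the medians were 63.8, 65.6 and 57.4 CPM in WT, Cic-S-KO and Cic-L-KO, ranges 51.0 to 74.1, 60.6 to 75.5 and 51.8 to 68.2, with Cic-S-KO above Cic-L-KO by 0.22 (SE 0.07, adjusted p 0.0295), a call lost with the replicate number as a block (0.21).

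Rasgrp2, known as CalDAG-GEFI from platelets and striatum, lies on chromosome 19 from 6399340 to 6415216. In cortex it ran through 11.7, 17.2 and 24.1 CPM in WT. Cic-S-KO ran through 14.4, 27.0 and 32.9 CPM, and Cic-L-KO through 13.4, 14.7 and 20.5. The Cic-S-KO samples were the most spread, with 4 of 7 above every Cic-L-KO sample, at a log2 of 0.66 against Cic-L-KO (SE 0.19, adjusted p 0.0114). Those 4 samples were the ones with the highest striatal marker sums of their group: Drd1, a dopamine receptor of striatal neurons, stood at 27.6 to 36.6 CPM in them and 10.5 to 22.8 in the other 3. Without the 6 libraries high in striatal markers the difference was 0.14 and did not pass. In lung the medians were 46.9, 44.9 and 47.0 CPM in WT, Cic-S-KO and Cic-L-KO, and in cerebellum 8.16, 7.69 and 8.82, with no comparison passing.

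Rasgrf2 was spread widely within each genotype in cerebellum. Its samples ran through 4.59, 8.50 and 24.1 CPM in WT, 8.12, 10.1 and 35 for Cic-S-KO and 7.15, 9.78 and 38.2 for Cic-L-KO. The groups overlapped and no comparison passed. The library highest for Slc17a6, a glutamate transporter gene of brainstem neurons, in each group was also the highest for Rasgrf2: 81.9 CPM of Slc17a6 in WT, 107 for Cic-S-KO and 105 for Cic-L-KO. These libraries were also the highest of their group for Slc6a5 and Hoxb3, but in WT Hoxb5 was higher in replicate 2 (1.83 CPM) than in replicate 1 (0.925). Cic-S-KO replicate 4 had 27.7 CPM of Rasgrf2 and 79.6 of Slc17a6, but 0 of Hoxb5, 0.146 of Hoxb3 and 44.0 of Slc6a5. In cortex its means were 248 ± 18.5, 239 ± 15.6 and 231 ± 17.9 CPM, without a call. Its relative Rasgrf1, a calcium-responsive exchange factor of neurons, fell in Cic-L-KO cortex from 356 ± 14.3 to 329 ± 10.1 CPM (log2 -0.11, SE 0.03, adjusted p 0.00612), with 6 of 8 samples below every WT sample. Cic-S-KO cortex had 378 ± 20.4 CPM, and all 7 samples lay above every Cic-L-KO sample (log2 0.20, SE 0.03, adjusted p 2.66e-05).

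**Figure D3:**
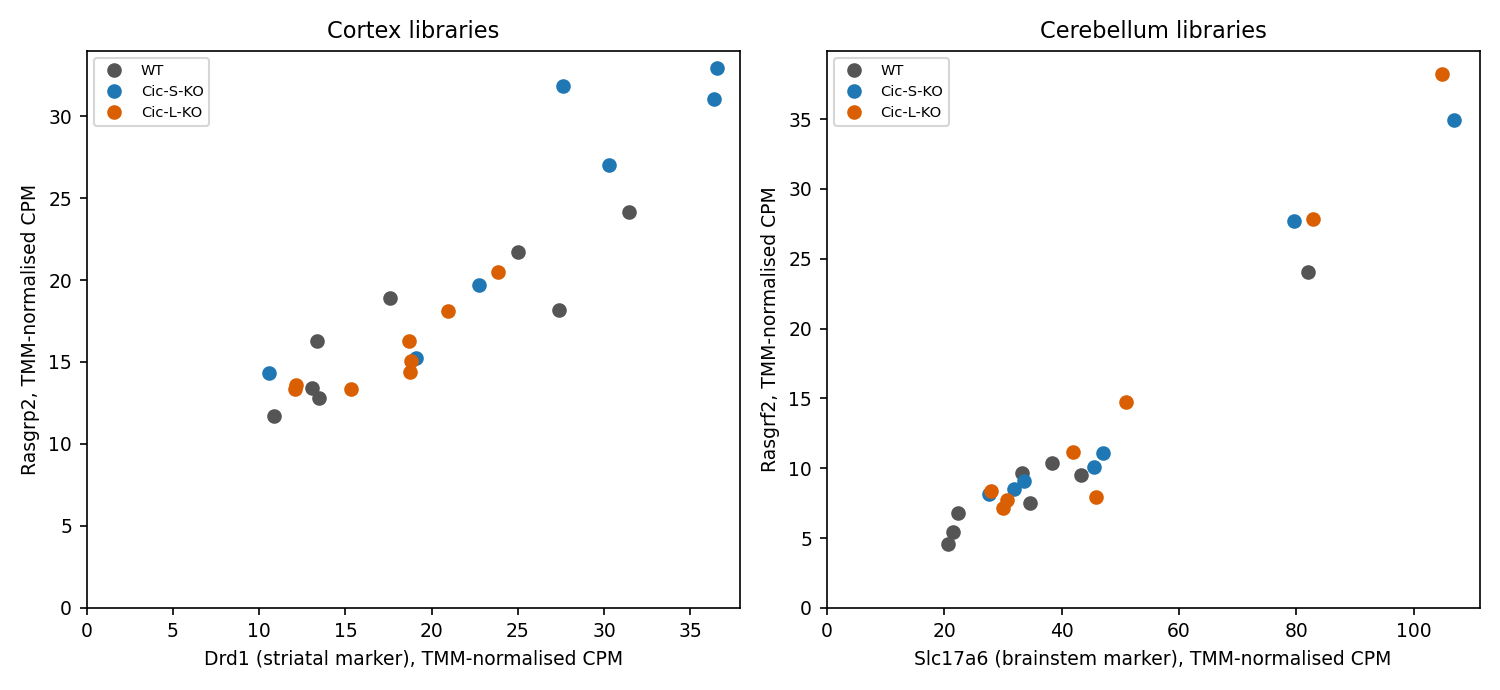
Each point is a library: at left Rasgrp2 against the striatal marker Drd1 in cortex, at right Rasgrf2 against the brainstem marker Slc17a6 in cerebellum, both axes in TMM-normalised CPM and coloured by genotype. The 4 cortex libraries above 25 CPM of Rasgrp2 are all Cic-S-KO with Drd1 at 27.6 CPM or more, and libraries of each genotype appear among the 5 with 24.1 CPM or more of Rasgrf2. Among the latter, Cic-S-KO replicate 4 was not high in the other brainstem markers.

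GTPase-activating proteins switch RAS off. Of these 4 genes, 3 fell in Cic-L-KO cortex, 2 in Cic-L-KO cerebellum and 1 in each knockout lung. Of all genes, 21.9%, 10.6%, 5.73% (Cic-S-KO lung) and 2.28% (Cic-L-KO lung) fell. Rasal1 lies on chromosome 5 from 120648812 to 120679597. In cerebellum its lowest, median and highest samples were 8.32, 11.4 and 13.1 CPM in WT. Cic-S-KO ran through 12.3, 14.9 and 16.8 CPM, and Cic-L-KO through 3.56, 4.38 and 5.78. The knockouts lay on opposite sides of WT: all 8 Cic-L-KO samples were below every WT sample, and 5 of 7 Cic-S-KO samples were above. The log2 fold change was -1.31 for Cic-L-KO (SE 0.11, adjusted p 2.03e-09) and 0.43 for Cic-S-KO (SE 0.10, adjusted p 0.00965), and the knockouts differed 3.35-fold (log2 1.74, SE 0.11, adjusted p 5.87e-12).
Cortex showed the same order at a higher level. Rasal1 ran there through 84.4, 91.1 and 103 CPM in WT, 102, 102 and 103 for Cic-S-KO and 67.3, 71.5 and 78.4 for Cic-L-KO. All 8 Cic-L-KO samples lay below every WT sample (log2 -0.35, SE 0.04, adjusted p 1.52e-08). Cic-S-KO was higher by 0.16 (SE 0.04, adjusted p 0.0172) but had 1 of 7 samples above every WT sample, and this call was lost when GC bins were removed (0.06). The fall in Cic-L-KO was larger in cerebellum than in cortex, by a log2 of 0.96 (SE 0.11, adjusted p 1.31e-09). In lung Rasal1 was at or below 0.739 CPM in every library but Cic-S-KO replicate 5, which had 2.30.

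Rasa1, which encodes p120-RasGAP, lies on chromosome 13 from 85214780 to 85289130 (minus strand). It was the single gene of the 35 to pass in Cic-L-KO in all 3 tissues in 1 direction. Of all genes tested, 2.28% fell in Cic-L-KO lung, 21.9% in Cic-L-KO cortex and 10.6% in Cic-L-KO cerebellum. The share of all genes that fell in all 3 was not counted. In lung Rasa1 ran through 92.5, 102 and 116 CPM in WT and 79.2, 84.0 and 95.3 for Cic-S-KO. Cic-L-KO lung ran through 84.7, 90 and 99.9 CPM. Both knockouts were lower with overlap, 6 of 8 and 5 of 8 samples lying below every WT sample, at log2 -0.25 (SE 0.05, adjusted p 0.00107) and -0.16 (SE 0.05, adjusted p 0.0418). The Cic-L-KO call in lung was lost when GC bins were removed, at -0.11.
In cortex Rasa1 ran through 57.7, 61.5 and 69.2 CPM in WT, 52.9, 58.6 and 63.0 for Cic-S-KO and 48.2, 55.1 and 57.4 for Cic-L-KO. All 8 Cic-L-KO samples were below every WT sample (log2 -0.20, SE 0.04, adjusted p 2.72e-04). In cerebellum it ran through 73.2, 81.7 and 87.0 CPM in WT, 66.1, 75.4 and 82.8 for Cic-S-KO and 68.3, 72.3 and 76.8 for Cic-L-KO. There 5 of 8 Cic-L-KO samples were below every WT sample (log2 -0.16, SE 0.04, adjusted p 0.00549), a call lost when GC bins were removed, at -0.10. Cic-S-KO did not pass in either brain region.

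Rasa2, a GTPase-activating protein that binds phosphoinositides, fell in Cic-L-KO cortex from 42.4 ± 2.51 to 38.3 ± 1.90 CPM (log2 -0.15, SE 0.06, adjusted p 0.0337), with 7 of 8 samples below every WT sample, and the call was lost when GC bins were removed (-0.06). Nf1, which encodes neurofibromin, passed against WT in no tissue, with cortex means of 137 ± 7.58, 129 ± 12.1 and 145 ± 4.94 CPM in WT, Cic-S-KO and Cic-L-KO. The knockouts differed in cortex by -0.17 for Cic-S-KO against Cic-L-KO (SE 0.05, adjusted p 0.00506), with 5 of 7 samples below every Cic-L-KO sample, and this call was lost without the libraries high in striatal markers, at -0.16.

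RAF kinases carry the signal from RAS to MEK. Araf passed in none of the 9 comparisons, at WT means of 97.8 ± 9.34 CPM in lung, 166 ± 9.22 in cortex and 201 ± 4.81 in cerebellum. Braf fell in Cic-L-KO cerebellum from 168 ± 12.5 to 150 ± 3.70 CPM (log2 -0.17, SE 0.04, adjusted p 0.00261), with 2 of 8 samples below every WT sample.

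KSR proteins hold RAF, MEK and ERK together. Ksr1 lies on chromosome 11 from 79013440 to 79146407 (minus strand). In cortex it ran through 54.5, 60.4 and 66.5 CPM in WT. Cic-S-KO ran through 61.6, 64.8 and 72.1 CPM, and Cic-L-KO through 81.3, 94.0 and 108. Every Cic-L-KO sample lay above every WT and every Cic-S-KO sample. The log2 fold change was 0.64 for Cic-L-KO (SE 0.05, adjusted p 5.20e-12), and Cic-S-KO was lower than Cic-L-KO by -0.52 (SE 0.05, adjusted p 7.36e-10).
In cerebellum the Ksr1 groups overlapped, at 31.6, 34.5 and 38.6 CPM in WT, 31.9, 37.7 and 39.4 for Cic-S-KO and 32.5, 34.3 and 39.9 for Cic-L-KO. The Cic-L-KO effect on Ksr1 differed between cortex and cerebellum by 0.62 (SE 0.07, adjusted p 2.85e-09). Lung also overlapped, with medians of 37.6, 37.3 and 41.4 CPM. The gene Gm11201 on the opposite strand shares 2.62% of the exon bases of Ksr1.
Ksr2, the KSR relative of neurons, passed in none of the 9 comparisons, at WT means of 0.374 ± 0.132 CPM in lung, 95.7 ± 7.91 in cortex and 140 ± 14.6 in cerebellum.

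MEK1 and MEK2 are the kinases that activate ERK, and their genes moved in opposite directions in Cic-L-KO cortex. Map2k1 fell from 299 ± 15.5 to 261 ± 24.8 CPM (log2 -0.19, SE 0.05, adjusted p 0.00194), with 6 of 8 samples below every WT sample. Map2k2 rose from 62.7 ± 2.42 to 68.9 ± 3.14 CPM (log2 0.14, SE 0.04, adjusted p 0.00213), with 7 of 8 above, but the call was lost when GC bins were removed (0.06). Cic-S-KO cortex had 308 ± 20.2 CPM of Map2k1, above Cic-L-KO by 0.24 (SE 0.05, adjusted p 4.73e-04).
Mapk3 rose in Cic-L-KO cortex from 143 ± 15.2 to 183 ± 19.0 CPM (log2 0.36, SE 0.08, adjusted p 5.17e-04), with 7 of 8 samples above every WT sample. Cic-S-KO cortex had 150 ± 17.7 CPM and was lower than Cic-L-KO by -0.29 (SE 0.08, adjusted p 0.00574). In Cic-L-KO cerebellum Mapk3 went from 98.7 ± 5.81 to 107 ± 6.39 CPM (log2 0.12, SE 0.04, adjusted p 0.0325), with 3 of 8 above, and this call was lost when GC bins (0.07) or length bins (0.09) were removed.

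RSK kinases are phosphorylated by ERK. Rps6ka2, which encodes RSK3, lies on chromosome 17 from 7170115 to 7303315 and gave the smallest p of the 35 genes in Cic-L-KO cortex. There it ran through 87.0, 96.3 and 108 CPM in WT, 96.2, 103 and 110 for Cic-S-KO and 145, 153 and 172 for Cic-L-KO. Every Cic-L-KO sample lay above every WT and every Cic-S-KO sample (log2 0.66, SE 0.04, adjusted p 2.52e-13 against WT). The knockouts differed by -0.58 (SE 0.05, adjusted p 1.16e-11).
In cerebellum Rps6ka2 ran through 34.0, 37.2 and 40.7 CPM in WT, 37.6, 41.1 and 46.5 for Cic-S-KO and 48.6, 51.4 and 60.4 for Cic-L-KO. Again every Cic-L-KO sample was above the other genotypes (log2 0.51, SE 0.05, adjusted p 1.02e-07 against WT), while Cic-S-KO stood at 0.17 (SE 0.05, adjusted p 0.0521). Lung turned the other way in Cic-S-KO. There the samples ran through 52.0, 54.5 and 64.9 CPM in WT, 41.6, 46 and 49.6 for Cic-S-KO and 43.9, 54.6 and 66.5 for Cic-L-KO. All 8 Cic-S-KO samples lay below every WT sample (log2 -0.31, SE 0.07, adjusted p 0.00372), and Cic-L-KO overlapped both groups. Cic-S-KO lung was lower than Cic-L-KO by -0.23 (SE 0.07, adjusted p 0.0280).

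Rps6ka1 lies on chromosome 4 from 133847290 to 133887797 (minus strand). It passed in Cic-L-KO in all 3 tissues, higher in lung and cortex and lower in cerebellum. In lung it ran through 57.0, 59.9 and 69.2 CPM in WT, 59.0, 67.9 and 73.6 for Cic-S-KO and 62.3, 70.2 and 76.3 for Cic-L-KO. Both knockouts were higher with overlap, at log2 0.16 (SE 0.05, adjusted p 0.0308) and 0.22 (SE 0.05, adjusted p 0.0111). The Cic-S-KO call in lung was lost without the neuronal-read library, at 0.15, and both lung calls were lost when GC bins were removed, at 0.10 and 0.16.
In cortex Rps6ka1 ran through 12.2, 14.5 and 17.8 CPM in WT, 14.4, 15.5 and 16.8 for Cic-S-KO and 15.3, 16.6 and 18.3 for Cic-L-KO. A Cic-L-KO rise of 0.16 (SE 0.06, adjusted p 0.0498) had 1 of 8 samples above every WT sample and was lost under 5 alternatives, RLE normalisation among them. In cerebellum, where the gene is most abundant, the samples ran through 108, 121 and 135 CPM in WT, 76.8, 97.8 and 109 for Cic-S-KO and 89.1, 108 and 119 for Cic-L-KO. Cic-S-KO was lowest, with 6 of 7 samples below every WT sample (log2 -0.33, SE 0.07, adjusted p 0.00512), and Cic-L-KO had 4 of 8 (log2 -0.20, SE 0.07, adjusted p 0.0341), a call lost with the replicate number as a block (-0.21) and with no low-count filter. Gm12977 on the opposite strand shares 5.8% of the exon bases of Rps6ka1.
Rps6ka3, which encodes RSK2, fell in Cic-L-KO cortex from 89.1 ± 7.04 to 79.9 ± 6.36 CPM (log2 -0.16, SE 0.06, adjusted p 0.0285), with 3 of 8 samples below every WT sample, and the call was lost when GC bins were removed (-0.07).

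**Figure D4:**
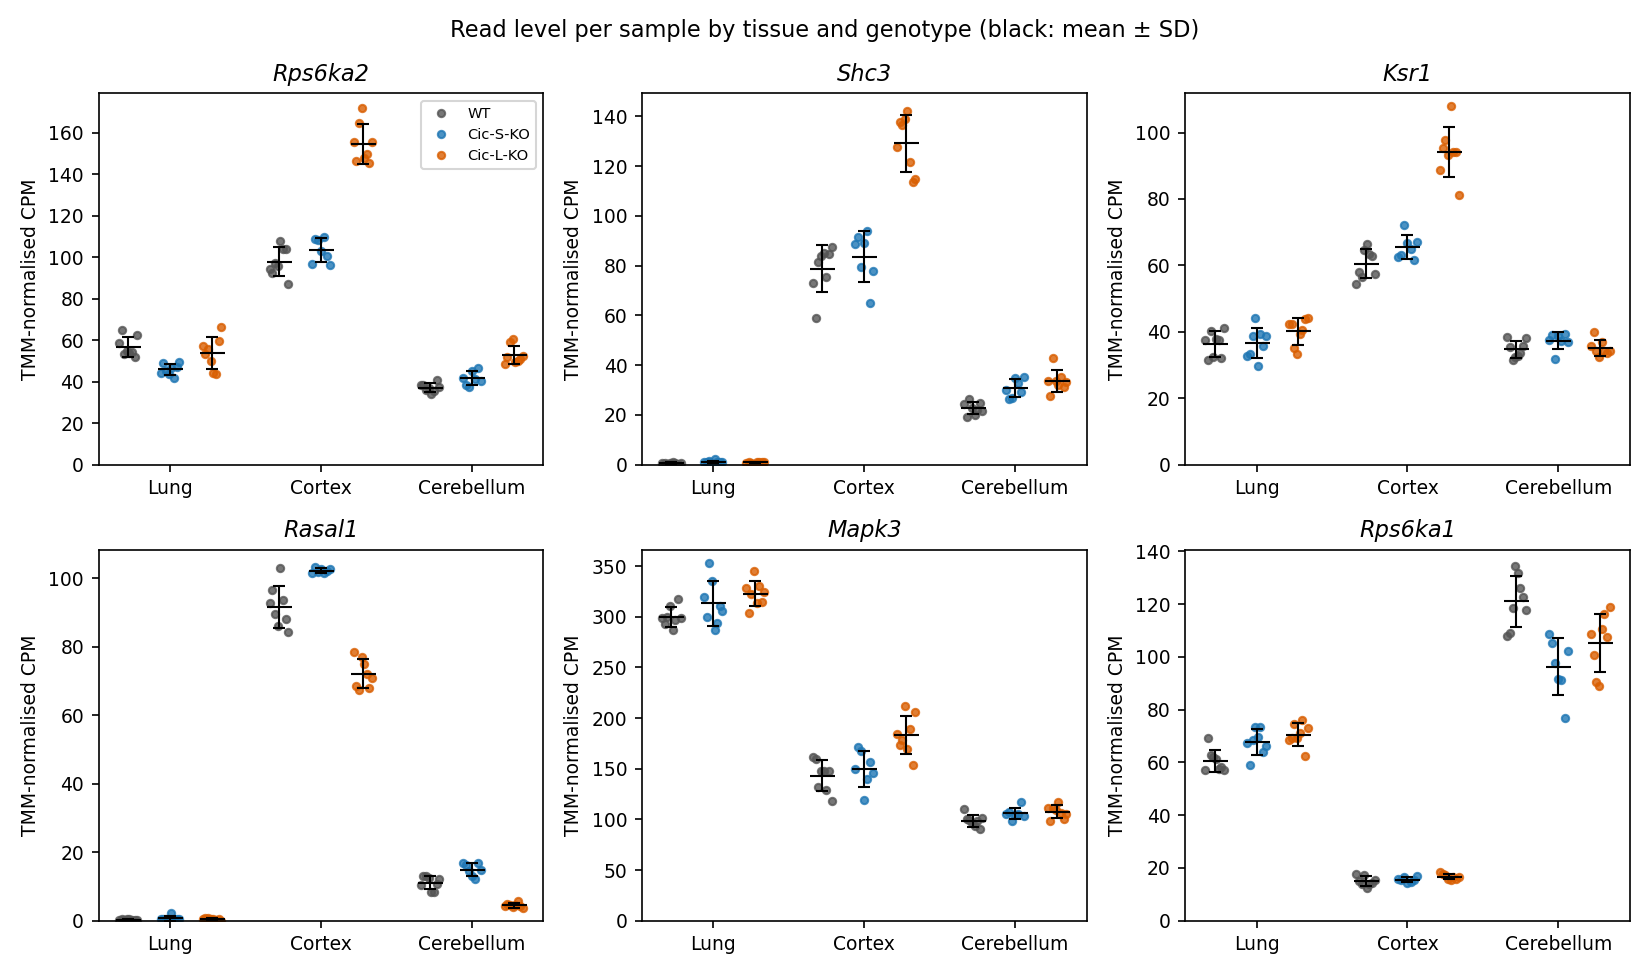
Level of 6 of the 35 genes in every sample, in TMM-normalised CPM from 0, by tissue and genotype, with black bars for mean ± SD. Cic-L-KO cortex stands clear of the other genotypes for Rps6ka2, Shc3 and Ksr1, Cic-L-KO is the lowest group for Rasal1 in both brain regions, and Rps6ka1 is higher than WT in Cic-L-KO lung and lower in Cic-L-KO cerebellum.

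The effect of each knockout was then compared between cortex and cerebellum in one model over 46 brain samples. For Cic-L-KO the effect differed in 8 of the 35 genes, 5 higher in cortex and 3 lower, or 22.9% against 23.0% of all genes (11.5% higher and 11.5% lower), so the share is at the background. Rasal1 (0.96) and Ksr1 (0.62) had the largest differences, followed by Rps6ka1 (0.36, SE 0.10, adjusted p 0.00440), Nras (-0.25), Mapk3 (0.24), Grb2, Mras and Rasgrf1 (-0.17). Without the 10 brain libraries high in striatal or brainstem markers, Mapk3 (0.22) and Rasgrf1 (-0.11) did not pass. Shc3, Shc4 and Rps6ka2, which passed in both regions in the same direction, did not differ between regions past the threshold, and for Rps6ka2 the 95% interval of the difference was 0.02 to 0.28. For Cic-S-KO 2 of 35 differed, Mras lower and Rps6ka1 higher in cortex (0.39, SE 0.10, adjusted p 0.0170), and the Rps6ka1 difference did not pass without those libraries (0.31). The share was 5.71% against 4.50% (2.01% higher and 2.50% lower).

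**Figure D5:**
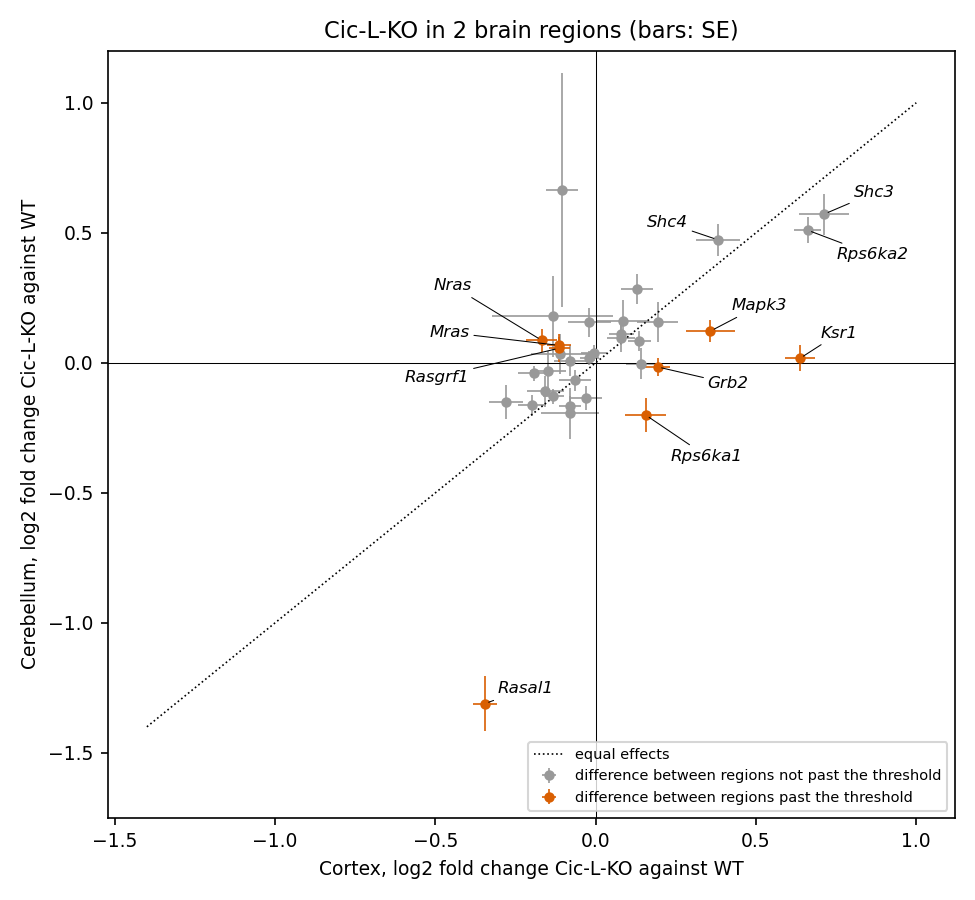
Log2 fold change of the 35 genes in Cic-L-KO against WT, cortex on the horizontal and cerebellum on the vertical axis, with SE bars; the dotted line marks equal effects and orange marks the 8 genes whose effect differed between regions. Ksr1 lies far right at 0.02 in cerebellum, Rasal1 lies far below, and Shc3, Shc4 and Rps6ka2 lie near the line in the upper right.

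A list of 70 other pathway genes (18 receptors, 28 further regulators, 9 effectors, 12 feedback inhibitors and 3 ETV targets) gives the setting. In Cic-L-KO cortex 26 of the 65 tested rose and 14 fell, and in Cic-L-KO cerebellum 19 rose and 6 fell, or 61.5% and 38.5% passing against 43.2% and 21.5% of all genes. Of the receptors, 10 of 17 rose in Cic-L-KO cortex and 12 of 17 in Cic-L-KO cerebellum, with 0 lower in either. Of all genes, 21.4% rose and 21.9% fell in Cic-L-KO cortex, and 10.9% rose and 10.6% fell in Cic-L-KO cerebellum. Kdr, the VEGF receptor of endothelium, rose by 0.80 in cortex (SE 0.13, adjusted p 2.50e-05) and by 1.14 in cerebellum (SE 0.10, adjusted p 1.87e-08). Beside it, all 3 endothelial markers were higher in cerebellum and 1 of 3 in cortex, and their part was not tested. Etv4, a PEA3 transcription factor and known Capicua target, rose by 1.09 in Cic-L-KO cortex (SE 0.08, adjusted p 5.79e-12). In lung it rose by 0.74 in Cic-S-KO (SE 0.09, adjusted p 1.26e-05) and 0.40 for Cic-L-KO (SE 0.09, adjusted p 0.00792). Of the 3 ETV genes, 2 rose and 1 fell in Cic-L-KO cortex, the last being Etv1 (mean 120 CPM in WT and 90.4 for Cic-L-KO), and 1 rose and 1 fell in Cic-L-KO cerebellum.
Among the other GTPase-activating proteins, Rasa4 rose in Cic-S-KO lung by 1.13 (SE 0.17, adjusted p 5.60e-05), in Cic-S-KO cortex by 0.44 (SE 0.13, adjusted p 0.0387) and in Cic-L-KO cortex by 0.62 (SE 0.13, adjusted p 1.91e-04). Dusp4, a phosphatase that inactivates ERK, rose in Cic-L-KO lung by 0.45 (SE 0.09, adjusted p 0.00311) and in Cic-L-KO cerebellum by 0.88 (SE 0.19, adjusted p 0.00269). Iqgap1, a scaffold that binds MEK and ERK, rose in Cic-L-KO cortex by 0.66 (SE 0.08, adjusted p 5.20e-08). In Cic-S-KO lung 5 of 64 rose and 4 fell, in Cic-L-KO lung 7 rose and 0 fell, in Cic-S-KO cortex 3 of 65 rose and 3 fell, and in Cic-S-KO cerebellum 1 rose and 3 fell. The shares passing were 14.1%, 10.9%, 9.23% and 6.15%, against 15.7%, 4.89%, 6.53% and 8.23% of all genes.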

How the data were processed

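RNA was prepared from flash-frozen tissue with a miRNeasy kit and libraries were poly(A)-selected, per the labels' protocols. The authors deposited raw counts per gene for 50789 versioned Ensembl identifiers in 70 samples; 50725 matched GENCODE M21 (GRCm38), which gave symbols, positions and exon lengths. STAR 2.7 and GRCm38.p6 are named in the submitters' processing notes, and the counting program, the annotation and the strand setting are not given in the sources used here. The 35 genes, the other pathway genes and the marker lists were chosen with earlier results of these data known.

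Counts were tested with edgeR 4.0.16 in R 4.3.3 (filterByExpr, TMM, robust quasi-likelihood fit). Each tissue was fitted with its 3 genotypes, and cortex with cerebellum over 46 samples. P-values were adjusted by Benjamini-Hochberg over all genes tested, with a threshold of 0.05. SE came from the F statistic, CPM are TMM-normalised, and levels between genes are compared per kb of exon. Of 238 pairs of samples within groups, 0 were identical and the lowest chi-square per degree of freedom was 3.93. On simulated counts for Cic-S-KO lung against WT over 16549 genes, 200 of 200 genes changed by a log2 of 1 were called, with 8 false calls. For the Cic-L-KO region difference over 17399 genes, 192 of 200 were called, with 8 false calls.

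Genes were described with all values if they passed with a log2 change of 0.5 or more in size, passed in 1 knockout in all 3 tissues, or had the smallest p of the 35 in a comparison. Of the other pathway genes, those named came from the 5 largest changes per comparison. Etv1 was outside that rule and was named as the ETV gene that fell in Cic-L-KO cortex. Alternatives were DESeq2 1.42.0, RLE, a minimum mean of 50 counts or none, a fold threshold, a non-robust fit, summed Y-linked expression as a covariate, removal of 20 GC or length bins, 2 genotypes per fit and the replicate number as a block. Leaving out libraries high in neuronal, striatal (6) or brainstem (4) markers was chosen after seeing the data, as were the striatal and brainstem lists. Replicate numbers come from the sample titles. The library names number titles 2 to 7 of the Cic-S-KO brain samples as 3 to 8, so a block by library number was added after seeing the data. In 11 of 12 pairings of groups at least 1 same-numbered pair correlated at 0.1 or less. The numbers were therefore not taken to pair the samples. The exception was Cic-S-KO cortex with Cic-S-KO cerebellum, where all 7 pairs were above. This rule cannot show that samples are unpaired. WT and Cic-L-KO lung correlated best with their own number in 6 of 8 pairs, against 0 of 8 in cerebellum. WT cortex with WT cerebellum had 7 of 8 pairs above 0.1. The main fits treat all samples as unpaired, with a block by number as an alternative. By library number, at least 1 pair was at 0.1 or less in each of the 4 pairings that changed.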

Additional observations from a re-analysis of the deposited data

Results flagged for a closer look

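A sample stood far from the other samples of its group in 5 of 99 gene and group sets examined, where chance alone gives about 4.95. They were Rras2 in WT cerebellum replicate 3 at 11.2 CPM (the next highest was 9.14), Shc2 in WT cerebellum replicate 5 at 21.3 CPM (next lowest 23.9), and Rasal1 in Cic-S-KO lung replicate 5 at 2.30 CPM (next highest 0.570). The others were Ksr1 in Cic-S-KO cerebellum replicate 3 at 31.9 CPM (next lowest 37.1) and Rps6ka1 in WT lung replicate 2 at 69.2 CPM (next highest 62.6). The Cic-S-KO lung library also held reads of neuronal genes, with Syt1 at 9.89 CPM.

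The knockout effect differed between cortex and cerebellum, by the edgeR test of the difference, in 10 cases. For Cic-S-KO these were Mras (log2 difference -0.29, adjusted p 0.00107) and Rps6ka1 (0.39, adjusted p 0.0170). For Cic-L-KO they were Nras (-0.25, adjusted p 0.00444), Mras (-0.18, adjusted p 0.00536), Grb2 (0.21, adjusted p 0.00294), Rasgrf1 (-0.17, adjusted p 0.0430) and Rasal1 (0.96, adjusted p 1.31e-09). Ksr1 (0.62, adjusted p 2.85e-09), Mapk3 (0.24, adjusted p 0.0391) and Rps6ka1 (0.36, adjusted p 0.00440) complete the Cic-L-KO list. The Mapk3 and Rasgrf1 differences in Cic-L-KO, and that of Rps6ka1 in Cic-S-KO, were lost under the alternatives named above.

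In 4 cases every knockout sample lay on one side of the WT mean in lung and every one on the other side in a brain region, and the difference was not tested because batch and age differ. In Cic-S-KO, Rasgrp1 stood at 0.62 in lung and -0.21 in cortex, and Rps6ka2 at -0.31 in lung and 0.17 in cerebellum. In Cic-L-KO, Map2k1 stood at 0.12 in lung and -0.19 in cortex, and Rps6ka1 at 0.22 in lung and -0.20 in cerebellum. Of these effects, Rps6ka2 in cerebellum (adjusted p 0.0521) and Map2k1 in lung (adjusted p 0.155) did not pass. Rps6ka1 also passed in Cic-S-KO at 0.16 in lung and -0.33 in cerebellum, though not every sample lay on its side of the WT mean.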

How the results depend on the processing

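Over the 12 comparisons, 122 gene results passed the threshold. Leaving the fold threshold aside, they were compared with alternatives in 1364 instances, kept their call in 1287, lost it in 77 and changed direction in 0, and 86 results kept it throughout. Of these alternatives, removing GC bins cost the most calls, 21 of 122. Counts of the 35 genes moved by over 1.5 times as follows. A minimum size of 0.5 on the log2 scale left 1, 0 and 0 genes in lung (Cic-S-KO against WT, Cic-L-KO against WT, and between the knockouts), 0, 3 and 5 in cortex, 0, 3 and 1 in cerebellum, 0 and 2 for the region difference in each knockout in that order, and 17 between WT regions. With GC bins removed the count was 5 for Cic-S-KO lung, 0 for Cic-L-KO lung and 2 for Cic-S-KO cortex. With no low-count filter it was 1 for Cic-L-KO lung and 2 for Cic-S-KO cortex. DESeq2 gave 4 for the Cic-S-KO region difference. Without Cic-S-KO lung replicate 5 the knockouts differed in 3 genes in lung. Without the striatal-high cortex libraries Cic-S-KO cortex gave 0 and without the brainstem-high libraries the cerebellum knockouts differed in 11. Without all 10 such brain libraries the Cic-S-KO region difference gave 1. The replicate block, by title numbers that were not taken to pair the samples, cost the calls of Mras in Cic-S-KO cortex (-0.12), Gab1 in Cic-S-KO (0.22) and Cic-L-KO cerebellum (0.16), Rps6ka1 in Cic-L-KO cerebellum (-0.21) and Rasgrp1 between the cerebellum knockouts (0.21). It cost no other call of the 35 genes. A replicate block by library number, added after seeing the data, cost the last 3 of these, and Gab2 (0.13) and Rps6ka3 (-0.16) in Cic-L-KO cortex and Mapk3 in Cic-L-KO cerebellum (0.12). Within a tissue, samples correlated best with their own number in 0 to 6 of 7 or 8 pairs, and between cortex and cerebellum in 6 of 7 for Cic-S-KO. In lung, Shc3, Rasal1, Rasgrf1 and Ksr2 are limited by depth, at WT means of 0.294 to 1.25 CPM.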
